A study of Rattus norvegicus with 18 samples.

Results

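Genes of sugar breakdown and of the response to low oxygen were followed in rat bone repairing around 3D-printed scaffolds. The members were 34 listed genes, of which 33 are in the count table and 31 had 10 or more counts in at least 3 of the 18 libraries. In all, 11833 of the 17337 genes in the table pass that rule. Of the 31 members, 20 encode glycolytic enzymes, sugar or lactate transporters, or the kinase Pdk1, and 11 sense oxygen or respond to it. Slc2a3, another glucose transporter, had 0 to 9 counts per library and did not pass, Eno2, an enolase, is listed at 0 in every library, and Egln1, a prolyl hydroxylase, was not analysed here.

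The animals were wild-type rats (WT in the labels) with a critical-sized gap in the radius that held a printed scaffold of polycaprolactone (PCL). ACPC-NP scaffolds carried chitosan nanoparticles with amorphous calcium phosphate, CaP scaffolds carried microparticles of calcium phosphate, and PCL scaffolds carried neither. Tissue within 1 mm of the implant was taken at week 2 or week 6, giving 6 groups of 3 libraries. In every group, marrow was treated to lyse red cells and digested with type IV collagenase, dispase and DNase, bone was digested with type I collagenase, and the freed cells were pooled before polyadenylated RNA was sequenced. The labels give neither age nor sex and do not tie each library to an animal of its own, so p-values measure the spread between libraries, which may be technical.

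Glycolysis splits glucose into pyruvate, and lactate dehydrogenase with the lactate exporter lets it run without oxygen. Egln prolyl hydroxylases use oxygen to mark the alpha subunits Hif1a and Epas1 for destruction. When oxygen is short, these subunits accumulate, pair with Arnt and raise transcription of glucose transporters, most glycolytic enzymes, vessel growth factors and enzymes that modify collagen. In bone this pathway is known for coupling vessel growth to bone formation at sites where the blood supply has been broken.

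The factor binds at a hypoxia response element, whose 5-letter core is ACGTG or GCGTG on either strand (CACGT or CACGC when read from the other). RefSeq promoter windows (assembly GRCr8, from 250 bases before to 50 after the start) were found for 28 of the 31 members by symbol, and Bnip3l, Pgk1 and Ndrg1 had no entry. A core lay in the window of 19 of the 28 (67.9%), made up of 14 of 19 glycolytic members (73.7%) and 5 of 9 oxygen-response members (55.6%). Among the 11682 genes of the count table with a window, 55.9% held one. Cores inside CACGTG overlap an E-box, which other factors also bind. Shown 5′ to 3′ are the 250 bases before the start of the 5 members with the largest week 2 differences, with each core in capitals.
Slc2a1 (chr5:138002272-138002521, plus strand): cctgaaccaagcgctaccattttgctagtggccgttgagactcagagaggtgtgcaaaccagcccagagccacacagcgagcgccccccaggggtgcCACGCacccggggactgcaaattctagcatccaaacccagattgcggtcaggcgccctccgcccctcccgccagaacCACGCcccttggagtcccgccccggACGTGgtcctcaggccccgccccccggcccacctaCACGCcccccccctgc
Bnip3 (chr1:203154963-203155212, minus strand): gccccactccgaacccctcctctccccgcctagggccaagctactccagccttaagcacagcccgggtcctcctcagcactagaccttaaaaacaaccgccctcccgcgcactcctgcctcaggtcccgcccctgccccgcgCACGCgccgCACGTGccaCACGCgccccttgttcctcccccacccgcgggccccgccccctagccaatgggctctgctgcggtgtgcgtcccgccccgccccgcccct
P4ha1 (chr20:27844796-27845045, plus strand): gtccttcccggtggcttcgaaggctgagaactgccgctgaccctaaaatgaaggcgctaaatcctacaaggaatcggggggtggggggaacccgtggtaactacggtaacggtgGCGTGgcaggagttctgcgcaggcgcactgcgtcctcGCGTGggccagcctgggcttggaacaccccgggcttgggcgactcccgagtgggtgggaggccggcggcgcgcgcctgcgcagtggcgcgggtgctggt
Adm (chr1:174179950-174180199, plus strand): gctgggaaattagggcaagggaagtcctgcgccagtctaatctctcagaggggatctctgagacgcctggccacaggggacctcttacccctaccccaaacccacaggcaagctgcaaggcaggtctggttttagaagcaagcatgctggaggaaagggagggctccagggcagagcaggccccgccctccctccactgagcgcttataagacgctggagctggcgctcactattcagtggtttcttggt
Egln3 (chr6:77411016-77411265, minus strand): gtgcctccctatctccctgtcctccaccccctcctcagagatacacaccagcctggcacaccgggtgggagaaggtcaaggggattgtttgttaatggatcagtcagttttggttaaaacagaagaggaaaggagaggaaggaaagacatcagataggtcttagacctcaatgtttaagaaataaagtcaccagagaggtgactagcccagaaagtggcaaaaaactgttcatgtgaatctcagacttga
Slc2a1 held 4 cores in its window of 300 bases, Bnip3 4, P4ha1 3, Adm 0 and Egln3 0, counted on both strands, so an E-box counts for 2. Cores were thus present in some and absent in others of the members that differed most. A match describes letters and not binding.

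Libraries held 18880604 to 27186587 counts, and levels below are CPM, counts scaled to a common library size with the TMM factors of edgeR. ACPC-NP replicate 3 at week 2 stood apart from the other 17 libraries. Its scaling factor was 0.706 against 0.950 to 1.11, and its first principal component score was 91.4 against -23.9 to 25.5. Osteoblast markers (9 of 9 measured, summed 4699 to 26335 CPM) and neutrophil markers (11 of 11, summed 15187 to 39474 CPM) were above 0 in every library, except the neutrophil gene Ltf, which was at 0 in CaP replicate 2 and ACPC-NP replicate 2 of week 2. Results that rest on ACPC-NP replicate 3 are given with and without it.

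At week 2 the glycolytic members took 1.70% of all counts in ACPC-NP replicate 3 and 0.444% to 0.712% in the other 17 libraries. The oxygen-response members took 0.350% in that library and 0.118% to 0.167% in the others. In bulk RNA, more cells of a type and more RNA per cell cannot be told apart. Replicate 3 was the highest of all 18 libraries for 27 of the 31 members, where it was highest for 26.3% of all genes tested. The exceptions were Pfkm, Pfkfb4, Bnip3l and Epas1. That ranking uses CPM and so carries the scaling factor of 0.706 of replicate 3. In raw counts its Hk1 (5761) and Pfkp (1655) were not the highest. Hk1 reached 7570 in ACPC-NP replicate 1 of week 6, and Pfkp 2276 in CaP replicate 1 of week 6. The CPM of replicate 3 exceeded the mean of the 6 CaP and PCL libraries by a median log2 of 2.39 over glycolytic members and 3.20 over oxygen-response members.

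The other ACPC-NP libraries of week 2 lay above the CaP and PCL libraries by far less. Replicate 1 exceeded all 6 of them for 15 of 31 members and replicate 2 for 21, against 15% and 15.6% of all genes tested. Both did so for 15 members, against 7.01% of all genes, and the median log2 excess over the mean of the 6 was 0.25 in replicate 1 and 0.43 in replicate 2. Of those 15 members, 12 were glycolytic, among them Tpi1 with few counts, and 3 were oxygen-response genes. For 26 of 31 members replicate 2 was above replicate 1, as for 52% of all genes.

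**Figure D1:**
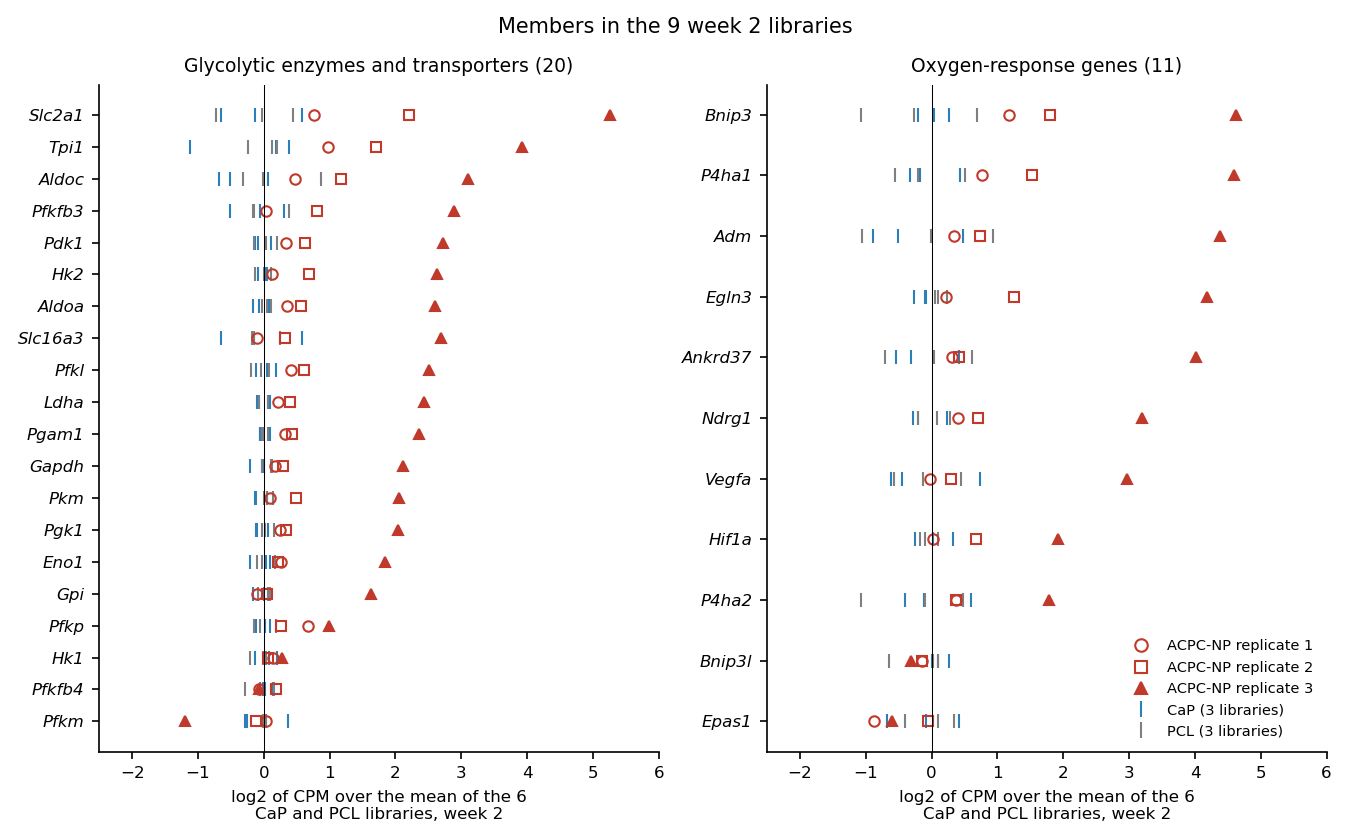
Each row is a member and each mark a week 2 library, placed by its log2 CPM over the mean of the 6 CaP and PCL libraries; ACPC-NP libraries are in red and CaP and PCL libraries are ticks. Replicate 3 of ACPC-NP (triangles) lies to the right of all others for 27 of 31 members, and replicates 1 and 2 both lie right of all ticks for 15.

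Glucose enters through Slc2a1 (GLUT1), which stood at 112, 303 and 2506 CPM in ACPC-NP replicates 1 to 3 at week 2. The same gene stood at 41.7, 59.8 and 98.5 CPM around CaP and at 39.8, 89.1 and 64.6 around PCL. All 3 ACPC-NP libraries were above the other 6, and their own spread ran from 112 to 2506. Slc2a1 rose around ACPC-NP, with a log2 difference from the average of the other scaffolds of 3.89 ± 0.66 (standard error, n = 3 against 6 libraries; edgeR adjusted p = 0.00978), and without replicate 3 the difference was 1.65 ± 0.42 (edgeR adjusted p = 0.235).

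Inside the cell, Hk1 and Hk2 trap glucose as its phosphate, and Pfkfb3 makes the fructose bisphosphate signal that speeds phosphofructokinase. Pfkfb3 stood at 47.6, 81.2 and 343 CPM around ACPC-NP, at 32.6, 44.7 and 57.7 around CaP and at 41.8, 60.5 and 41.7 around PCL. Its groups overlapped, because ACPC-NP replicate 1 lay among the other scaffolds. It rose by 1.76 ± 0.43 (edgeR adjusted p = 0.0309), and without replicate 3 the difference was 0.46 ± 0.27 (edgeR adjusted p = 0.849).

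Aldoc, an aldolase best known from brain, stood at 2.52, 4.10 and 15.6 CPM around ACPC-NP, at 1.27, 1.13 and 1.89 around CaP and at 1.46, 3.33 and 1.79 around PCL. All 3 ACPC-NP libraries were above CaP, and PCL replicate 2 was above ACPC-NP replicate 1. It rose by 2.05 ± 0.52 (edgeR adjusted p = 0.0358), with 0.89 ± 0.47 when replicate 3 was left out. Tpi1, the triose phosphate isomerase, stood at 0.354, 0.592 and 2.75 CPM around ACPC-NP and at 0.0837 to 0.237 CPM in the other 6 libraries. Its groups did not overlap, but those values rest on 9, 15 and 49 counts, which is low for an enzyme that most cells make in quantity, and RefSeq names 3 pseudogene copies. Tpi1 reached 10 counts in only 1 library outside ACPC-NP at week 2, so it entered through the group where it was high, and its difference of 2.70 ± 0.55 (1.35 ± 0.47 without replicate 3) is a description.

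The glycolytic members with the smallest differences were isoforms of enzymes already named. Hk1, the hexokinase that red cells and brain rely on, stood at 295, 279 and 323 CPM around ACPC-NP, at 307, 243 and 282 around CaP and at 264, 230 and 272 around PCL. Pfkfb4, which makes the same signal as Pfkfb3, stood at 34.9, 42.1 and 35.1 CPM around ACPC-NP and between 30.4 and 41.0 in the other 6 libraries. ACPC-NP replicate 3 was not apart for Pfkfb4, and the groups of both genes overlapped. The differences were 0.17 ± 0.11 for Hk1 and 0.02 ± 0.23 for Pfkfb4 (edgeR adjusted p = 0.434 and 0.969).

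Leaving Tpi1 aside, 11 of 19 glycolytic members rose around ACPC-NP in that week 2 comparison and 0 fell (12 of 20 with it). Besides Slc2a1, Pfkfb3 and Aldoc these were Hk2 (1.57 ± 0.37), Pfkl (1.51 ± 0.32), Aldoa (1.56 ± 0.37), Pdk1 (1.65 ± 0.36), Ldha (1.39 ± 0.35), Pgam1 (1.36 ± 0.34), Gapdh (1.15 ± 0.32) and Pgk1 (1.13 ± 0.29). Hk2 phosphorylates glucose, Pfkl carries out the committed step, Aldoa splits the sugar, and Gapdh, Pgk1 and Pgam1 act after the split. Ldha forms lactate, and Pdk1 inhibits pyruvate dehydrogenase, the mitochondrial enzyme that turns pyruvate into acetyl-CoA. Without replicate 3 these differences were 0.43, 0.51, 0.46, 0.48, 0.30, 0.37, 0.23 and 0.29, in the same order, and none passed the test.

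Members that did not pass were Pkm at 1.14 ± 0.33 (edgeR adjusted p = 0.0570), Pfkp at 0.67 ± 0.19, the lactate exporter Slc16a3 at 1.53 ± 0.46, Eno1 at 0.99 ± 0.30, Gpi at 0.75 ± 0.30, Hk1, Pfkfb4, and Pfkm at -0.33 ± 0.22. Pfkp and Eno1 were nonetheless above the other 6 libraries in all 3 ACPC-NP libraries. RefSeq names 81 pseudogene copies of Gapdh, 31 of Eno1, 30 of Ldha, 19 of Pkm, 13 of Pgam1, 9 of Aldoa and 8 of Pgk1, and reads shared with such copies make these counts uncertain.

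Among oxygen-response members, Bnip3, a receptor that marks mitochondria for removal, stood at 13.1, 20.2 and 143 CPM around ACPC-NP, at 5.96, 5.02 and 6.98 around CaP and at 2.76, 9.34 and 4.83 around PCL. All 3 ACPC-NP libraries were above the other 6, and RefSeq names 8 pseudogene copies of this gene. Bnip3 rose by 3.33 ± 0.70 (edgeR adjusted p = 0.0182), with 1.51 ± 0.59 without replicate 3 (edgeR adjusted p = 0.608).

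P4ha1, the catalytic subunit of collagen prolyl hydroxylase, stood at 57.5, 97.6 and 814 CPM around ACPC-NP, at 27.0, 29.8 and 45.3 around CaP and at 23.0, 48.1 and 29.4 around PCL. Again no CaP or PCL library reached an ACPC-NP library. P4ha1 rose by 3.26 ± 0.62 (edgeR adjusted p = 0.0133), with 1.19 ± 0.40 without replicate 3 (edgeR adjusted p = 0.465). Its relative P4ha2 stood at 17.6, 17.7 and 46.7 CPM around ACPC-NP against 6.48 to 20.6 in the other 6, which overlapped, and its difference of 1.01 ± 0.48 did not pass (edgeR adjusted p = 0.269).

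Egln3 is the prolyl hydroxylase that is itself induced when oxygen falls. It stood at 34.9, 70.8 and 543 CPM around ACPC-NP, at 24.8, 27.9 and 28.2 around CaP and at 31.9, 35.1 and 31.1 around PCL. ACPC-NP was above every CaP library, while PCL replicate 2 (35.1) was just above ACPC-NP replicate 1 (34.9). Egln3 rose by 2.86 ± 0.52 (edgeR adjusted p = 0.0118), and without replicate 3 its difference was 0.82 ± 0.17, which had the smallest adjusted p of the members in that fit (edgeR adjusted p = 0.123).

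Adm, the vessel-relaxing peptide adrenomedullin, stood at 3.35, 4.38 and 54.8 CPM around ACPC-NP, at 1.85, 1.42 and 3.67 around CaP and at 1.26, 5.03 and 2.62 around PCL. Replicates 1 and 2 lay among the other scaffolds and replicate 3 alone stood out. It rose by 2.98 ± 0.74 (edgeR adjusted p = 0.0326), a difference of 0.55 ± 0.58 without that library. Vegfa, the vessel growth factor, followed the same order of libraries at 123, 152 and 976 CPM around ACPC-NP against 81.2 to 208 in the other 6, and its difference of 1.74 ± 0.52 did not pass (edgeR adjusted p = 0.0712; 0.13 ± 0.38 without replicate 3).

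Hif1a, whose protein is controlled mainly by its destruction, had transcript levels of 137, 217 and 511 CPM around ACPC-NP, 113, 137 and 170 around CaP and 120, 144 and 126 around PCL. Replicates 2 and 3 of ACPC-NP were above all 6 others and replicate 1 was among them. Hif1a rose by 1.09 ± 0.27 (edgeR adjusted p = 0.0316), with 0.38 ± 0.16 without replicate 3. Epas1, the other alpha subunit and one typical of vessel cells, stood at 12.2, 21.5 and 14.7 CPM around ACPC-NP against 13.9 to 29.9 in the other 6 libraries, a difference of -0.47 ± 0.54 (edgeR adjusted p = 0.655). Bnip3l, a mitophagy receptor needed as red cells mature, stood at 841, 839 and 747 CPM around ACPC-NP, at 995, 1120 and 935 around CaP and at 988, 592 and 938 around PCL, below CaP and overlapping PCL, with a difference of -0.19 ± 0.17 (edgeR adjusted p = 0.548).

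Of the 11 oxygen-response members, 7 rose and 0 fell, the others called being Ndrg1 at 2.02 ± 0.48, a stress-induced gene, and Ankrd37 at 2.64 ± 0.61, an ankyrin-repeat gene known as a target of the hypoxia factor. Over both sets 19 of 31 members rose (18 of 30 without Tpi1), against a background of 4.88% of the 11814 genes tested that were called higher, and 0 fell (0.11% of all genes). The log2 difference was above 0 for 28 of 31 (46.9% of all genes), and the 3 ACPC-NP libraries lay above the other 6 for 15 of 31 (5.8% of all genes). Without Tpi1 these were 27 of 30 and 14 of 30. The median difference was 1.38 for glycolytic members and 2.02 for oxygen-response members, beside -0.02 over all genes tested. Voom with quality weights called 12 of 31, with a median of 0.59 against 1.51 by edgeR. The share of all genes called by voom or DESeq2 is not given here or below, so their counts stand without a background. Without replicate 3, edgeR called 0 of 31 members (0.0837% of all genes were called higher), 11 had an unadjusted p under 0.05 (4.84% of all genes), DESeq2 called 2 (Slc2a1 and Egln3) and voom called 0. In that fit 27 of 31 differences were above 0 (45.7% of all genes), and the medians were 0.34 and 0.38 beside -0.02 over all genes. With Tpi1 also set aside, 10 of 30 had an unadjusted p under 0.05 by edgeR and 26 of 30 were above 0.

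The 19 calls also moved with other libraries. Leaving out CaP replicate 1, CaP replicate 2 or PCL replicate 1 of week 2 left 4 calls, leaving out PCL replicate 3 left 7, leaving out CaP replicate 3 or PCL replicate 2 left 13, and leaving out ACPC-NP replicate 1 or 2 gave 24. The share of all genes called in these fits is not given here, so the shifts cannot be read as particular to the members. A fit of the 9 week 2 libraries alone, which tested 30 of the members, called 0 by edgeR, with 24 at an unadjusted p under 0.05.

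**Figure D2:**
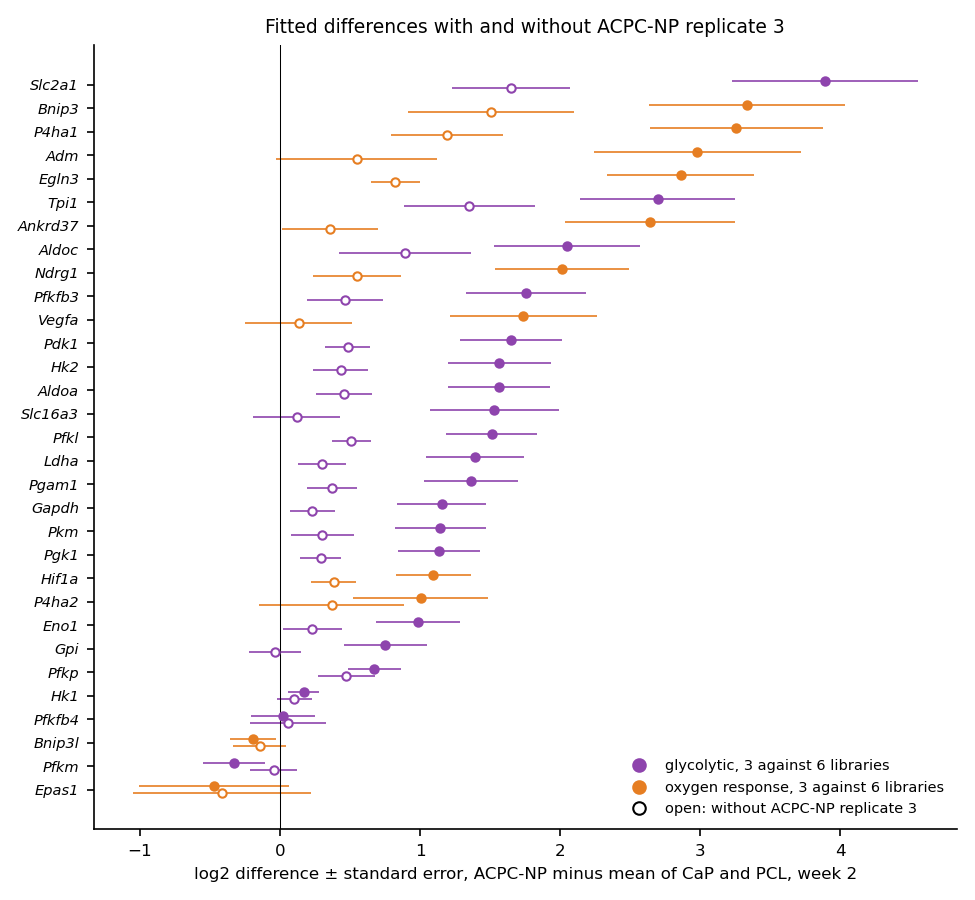
Points are week 2 log2 differences of ACPC-NP minus the average of the other scaffolds with standard errors as bars, filled for all libraries and open without ACPC-NP replicate 3; purple marks glycolytic members and orange oxygen-response members. Slc2a1 moves from 3.89 to 1.65 and the median of all members from 1.51 to 0.37, and 27 of 31 open points remain above 0.

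Against each scaffold alone, no member passed at week 2. For ACPC-NP minus PCL, edgeR called 0 members (0% of all genes), and 24 of 31 were higher by an unadjusted p below 0.05 (12.3% of all genes), while DESeq2 called 17 and voom 5. In that comparison 16 members lay above PCL without overlap, against 9.56% of all genes. For ACPC-NP minus CaP, edgeR called 0 (0% of all genes), and 25 were higher by an unadjusted p below 0.05 (11.6% of all genes), DESeq2 20 and voom 6, and 18 members lay above CaP without overlap (8.57% of all genes) and 1, Bnip3l, below (7.91%). Slc2a1 differed by 3.92 ± 0.87 from PCL and by 3.87 ± 0.87 from CaP, and Bnip3 by 3.38 ± 0.91 and 3.29 ± 0.90. The DESeq2 and voom counts have no share of all genes beside them, so they are not read as a result about the members. The comparisons with PCL and with CaP share the ACPC-NP libraries and so do not support each other. Tpi1, which entered through ACPC-NP at week 2, is counted among the members above without overlap in both. The medians were 1.52 and 1.47, or 0.37 and 0.38 without replicate 3.

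Between CaP and PCL the members were close at week 2. By edgeR 0 members were called (0% of all genes), 0 had an unadjusted p under 0.05 (0.466% of all genes lower and 1.08% higher), and DESeq2 and voom called 0. The median difference was -0.04, with members between -0.61 (Aldoc, ± 0.64) and 0.28 (Bnip3l, ± 0.19). Egln3 alone did not overlap, lying below PCL in every CaP library with a difference of -0.28 ± 0.63, as 2.93% of all genes did. It stood at 24.8, 27.9 and 28.2 CPM around CaP and at 31.9, 35.1 and 31.1 around PCL. Standard errors and tests between CaP and PCL carry the spread of ACPC-NP at week 2, because all libraries share the fit.

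Isoforms of an enzyme differed in how far they moved with ACPC-NP replicate 3. The pairs were chosen after their values were seen, carry no test, and are ratios of counts that are not per length, so only their change between libraries can be read. Hk2 counts over Hk1 counts reached 0.992 in that library and ran from 0.159 to 0.301 in the other 17. Pfkl over Pfkm reached 56.6 against 3.49 to 7.38, as Pfkl was high and Pfkm, the muscle isoform, was at its lowest. Pfkfb3 over Pfkfb4 reached 9.77 against 0.806 to 1.93. Pfkp over Pfkm ran from 2.28 to 8.03 in the ACPC-NP libraries of week 2 and from 1.46 to 2.12 in the CaP and PCL libraries of that week. At week 6 it ran from 1.72 to 3.02 over all scaffolds.

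In the oxygen set, Bnip3 over Bnip3l reached 0.192 in replicate 3 against 0.00278 to 0.0412 in the other 17, and P4ha1 over P4ha2 reached 17.4 against 2.14 to 6.45. Hif1a over Epas1 ran from 10.1 to 34.8 in the 3 ACPC-NP libraries of week 2 and from 4.43 to 8.11 in the 6 CaP and PCL libraries. Like Pfkp over Pfkm, this ratio did not rest on replicate 3 alone. At week 6 Hif1a over Epas1 ran from 2.42 to 21.5 over all scaffolds. Aldoc over Aldoa overlapped between the groups.

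**Figure D3:**
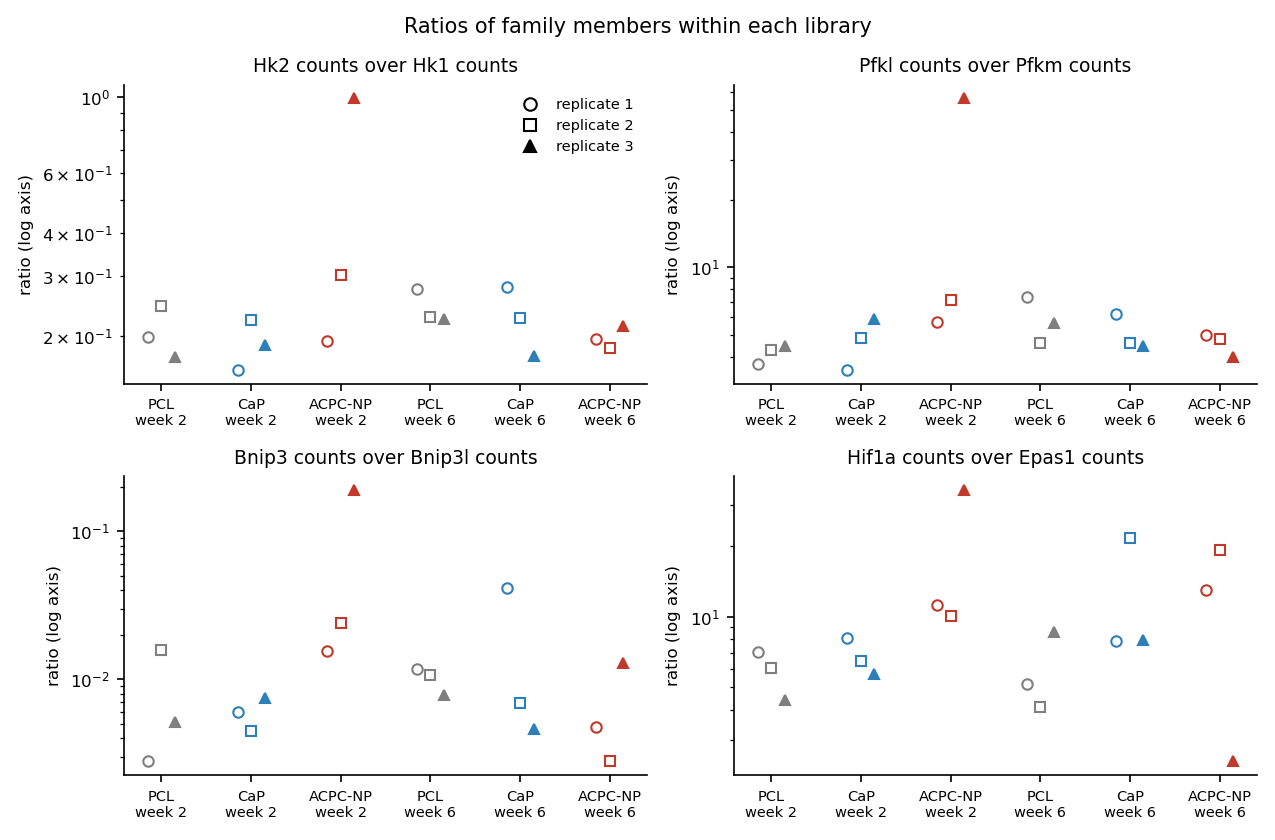
Each panel shows, on a log axis, the ratio of raw counts of 2 related members in each of the 18 libraries by scaffold and week, with the marker shape giving the replicate. ACPC-NP replicate 3 at week 2 is the highest point in all 4 panels, at 0.992, 56.6, 0.192 and 34.8.

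Marker levels of other cells also differed in these libraries. Osteoclast markers (6 of 8 measured, none at 0) summed to 1064, 634 and 1038 CPM around ACPC-NP at week 2 and to 275 to 454 in the 6 CaP and PCL libraries. The immediate early and stress list (11 of 11, none at 0) summed to 1831, 2694 and 11245 CPM around ACPC-NP, 1265 to 3095 around CaP and 1391 to 2671 around PCL. In ACPC-NP replicate 3 the proliferation list (8 of 8) summed to 1768 CPM against 2794 to 3764 in the other 17 libraries, and Fth1, a ferritin chain, held 3.51% of counts against 0.129% to 0.467%. Megakaryocyte and platelet markers (5 of 7, 1 of them at 0 in every library) summed to 54.0, 91.6 and 215 CPM around ACPC-NP and to 21.9 to 42.8 in the 6 others. Nearly all of that sum was 1 gene, Pf4, at 48.0, 84.9 and 211 CPM around ACPC-NP. Ppbp, Gp9 and Gp1ba overlapped between ACPC-NP and the 6 others, so the list did not rise as a whole. Monocyte and macrophage markers (9 of 10) summed to 8431 to 11153 CPM against 8597 to 9614, but within that list Cd68 stood at 296, 302 and 664 CPM against 136 to 173, and Csf1r at 407, 382 and 560 against 210 to 287. The osteoblast sum was 7914 CPM in replicate 3 and 11535 to 26335 in the other 8 week 2 libraries. The part of these cells and of stress in the week 2 differences was not tested.

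At week 6 the scaffolds overlapped in the level of both sets. The mean centred log2 level of the glycolytic members ran from -0.18 to 0.12 around ACPC-NP, from -0.25 to 0.25 around CaP and from -0.45 to 0.13 around PCL. That of the oxygen-response members ran from -0.72 to 0.14, from -0.58 to 0.38 and from -0.33 to 0.09. Slc2a1 stood at 76.7, 46.3 and 93.6 CPM around ACPC-NP, at 166, 71.5 and 69.0 around CaP and at 101, 66.5 and 84.5 around PCL. CaP replicate 1 was the highest week 6 library for Slc2a1, Bnip3 (25.4 CPM), P4ha1 (73.6 CPM) and Ndrg1 (279 CPM).

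**Figure D4:**
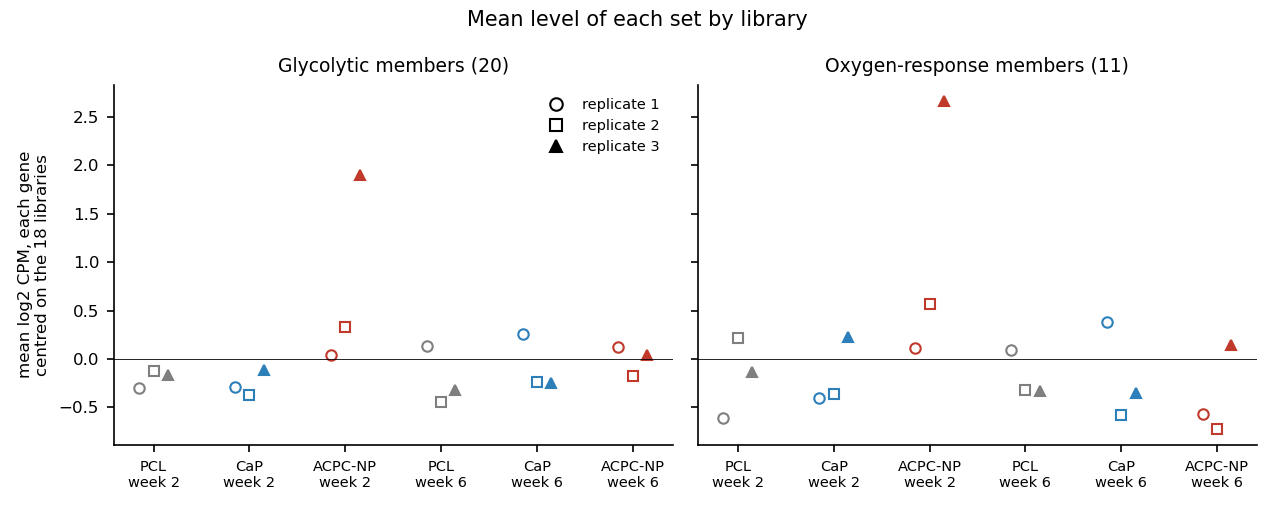
Each point is a library, placed by the mean over the 20 glycolytic (left) or 11 oxygen-response members (right) of log2 CPM centred on the 18 libraries. ACPC-NP replicate 3 at week 2 stands at 1.90 and 2.67, and all other libraries lie between -0.72 and 0.57.

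Hk1, Bnip3l and Ankrd37 did not overlap between ACPC-NP and the other scaffolds at week 6, a number near the background given with the test. Hk1 stood at 323, 320 and 280 CPM around ACPC-NP, at 244, 252 and 249 around CaP and at 275, 196 and 207 around PCL. Bnip3l stood at 1098, 1282 and 975 CPM around ACPC-NP, at 615, 778 and 797 around CaP and at 785, 589 and 837 around PCL. For both genes every ACPC-NP library was above the other 6. Against the average of the other scaffolds the differences were 0.38 ± 0.11 for Hk1 and 0.61 ± 0.16 for Bnip3l, higher in 3 of 3 libraries, and neither passed (edgeR adjusted p = 0.115 and 0.105). Without ACPC-NP replicate 3 of week 2 in the fit they were 0.38 ± 0.11 and 0.62 ± 0.16 (edgeR adjusted p = 0.0688 and 0.0659).

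In that comparison edgeR called 0 members (0% of all genes) and 2 had an unadjusted p under 0.05 (9.62% of all genes higher), and these were Hk1 and Bnip3l. DESeq2 called 2 and voom 4, without a share of all genes to set them against. The 2 members above without overlap and the 1 below, Ankrd37, compare with 7.17% and 7.53% of all genes, so their count was near the background. Ankrd37 stood at 1.67, 1.49 and 1.51 CPM around ACPC-NP and at 1.71 to 2.84 in the other 6 libraries. The median over members was 0.09 beside 0.00 over all genes.

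The erythroid list also separated ACPC-NP at week 6. Its 9 measured markers of 10 summed to 13088, 15318 and 11690 CPM around ACPC-NP at week 6, to 7385 to 10058 around CaP and to 6718 to 9559 around PCL, and of the 9 Gata1 was at 0 in every library. At week 2 the sums were 9711, 8752 and 5557 around ACPC-NP, 11184 to 12032 around CaP and 6699 to 10721 around PCL, and Bnip3l in ACPC-NP libraries was then below every CaP library. At week 2 ACPC-NP replicate 3 had the lowest erythroid sum of all 18 libraries. Its Hk1 level of 323 CPM was the highest of that week, but this depends on its scaling factor of 0.706. In raw counts its Hk1 value of 5761 was the lowest of that week, against 5801 to 7488 in the others. The part of red cell precursors in the Hk1 and Bnip3l differences was not tested.

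**Figure D5:**
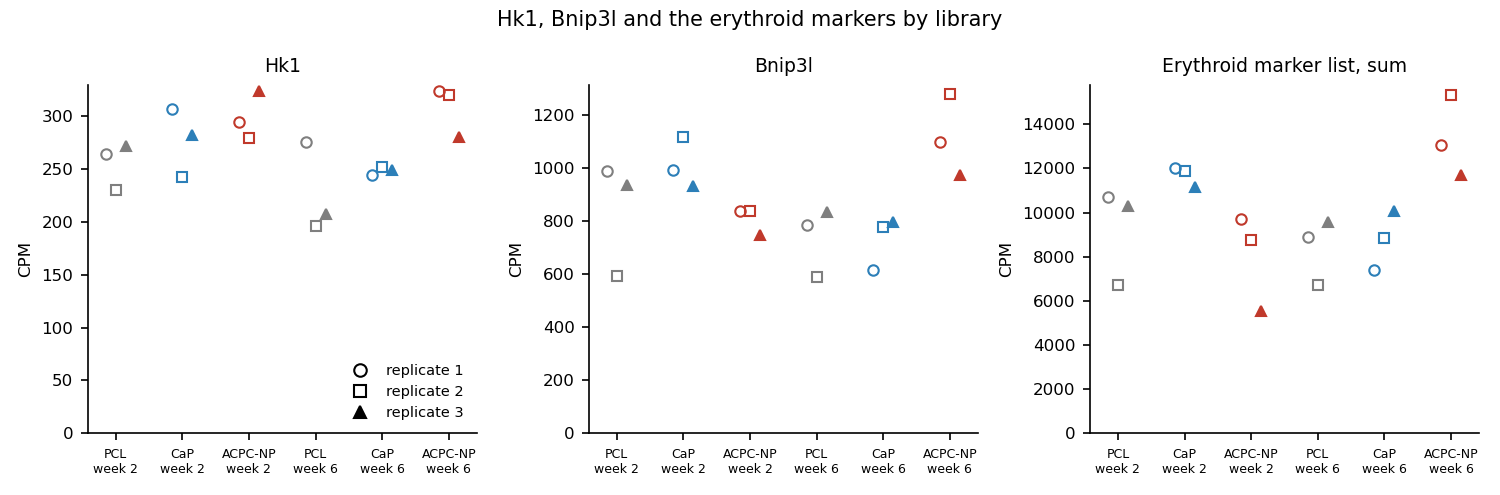
CPM of Hk1 (left), CPM of Bnip3l (middle) and the summed CPM of the erythroid marker list (right) are shown for each of the 18 libraries by scaffold and week, with the marker shape giving the replicate. The 3 ACPC-NP libraries of week 6 lie above the 6 CaP and PCL libraries of that week in all 3 panels, from 280, 975 and 11690 CPM upward.

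Against single scaffolds at week 6, the members were as little separated. For ACPC-NP minus PCL, edgeR called 0 members (0% of all genes) and 2 had an unadjusted p under 0.05 (9.23% of all genes higher). DESeq2 called 2 and voom 7, again without a share of all genes. Hk1 differed by 0.44 ± 0.13 and Bnip3l by 0.60 ± 0.19 (edgeR adjusted p = 0.0932 and 0.102), while Hk1, Egln3 and Bnip3l, 3 members, lay above PCL without overlap (12.8% of all genes) and 1, Ankrd37, below (14.2%). For ACPC-NP minus CaP, edgeR called 0 (0% of all genes), 2 had an unadjusted p under 0.05 (4.38% of all genes higher), DESeq2 and voom called 0, and 2 members lay above and 2 below CaP without overlap (12.3% and 12.5% of all genes). CaP minus PCL gave 0 calls by edgeR (0% of all genes), by DESeq2 and by voom, with 0 at an unadjusted p under 0.05 (0.914% of all genes higher and 1.66% lower), and 1 member, Egln3, lay above PCL without overlap (3.99%).

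Egln3 kept narrow groups at week 6, at 42.5, 36.3 and 35.1 CPM around CaP, 33.5, 32.0 and 33.9 around ACPC-NP and 31.4, 29.4 and 29.2 around PCL. No pair of these groups overlapped, with CaP highest and PCL lowest, whereas at week 2 CaP had been the lowest. The CaP minus PCL difference of 0.34 ± 0.63 at week 6 did not pass (edgeR adjusted p = 1.00), and its standard error carries the spread of ACPC-NP at week 2, because all libraries share the fit. Without ACPC-NP replicate 3 it was 0.36 ± 0.18 (edgeR adjusted p = 0.976).

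From week 2 to week 6 most members stood lower around ACPC-NP, while CaP and PCL showed little movement. The median log2 change was -1.22 around ACPC-NP, 0.14 around CaP and -0.002 around PCL. P4ha1 went to 22.9, 23.7 and 37.8 CPM at week 6 (-3.52 ± 0.81), Slc2a1 had a change of -3.75 ± 0.87, and Egln3 of -2.70 ± 0.67 (edgeR adjusted p = 0.0870, 0.0870 and 0.0877). For these 3 genes every week 6 ACPC-NP library was below every week 2 library, as for 10 of 31 members (9.3% of all genes). Without replicate 3 the changes were -1.44 ± 0.47, -1.50 ± 0.50 and -0.65 ± 0.20, and the median was -0.30.

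By edgeR 0 members passed for the change around ACPC-NP (0.00846% of all genes), with 23 lower at an unadjusted p under 0.05 (12.5% of all genes), DESeq2 called 15 and voom 7. Around CaP edgeR called 0 members (0% of all genes) and 1 had an unadjusted p under 0.05, Bnip3l at -0.48 ± 0.19 (3.09% of all genes lower), and DESeq2 and voom called 0. Around PCL edgeR and DESeq2 called 0 (0% of all genes by edgeR), 0 had an unadjusted p under 0.05 (5.97% of all genes higher and 3.9% lower), and voom called 1. Whether the change differed between scaffolds was tested as an interaction. Against PCL its median over members was -1.25 and against CaP -1.45, edgeR called 0 members in each (0% of all genes), 15 and 21 were lower at an unadjusted p under 0.05 (9.37% and 8.08% of all genes), DESeq2 called 2 and 5, and voom 4 and 1. Without replicate 3 the medians were -0.28 and -0.43. DESeq2 and voom counts for the week changes and interactions stand without a share of all genes. They are not read as a result about the members.

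P4ha2 had the smallest adjusted p of the members for the mean change of the 3 scaffolds, at -1.11 ± 0.34 (edgeR adjusted p = 0.160), or -0.89 ± 0.32 without replicate 3. It stood at 3.55, 5.19 and 14.1 CPM around ACPC-NP at week 6, 15.9, 5.27 and 7.97 around CaP and 9.59, 6.25 and 4.33 around PCL, which overlaps the week 2 range of 6.48 to 46.7. By edgeR 0 members were called (0.686% of all genes) and 4 had an unadjusted p under 0.05 (7.92% of all genes lower). DESeq2 and voom each called 1, without a share of all genes beside it. Lox, the enzyme that crosslinks collagen, was one of 30 other oxygen-response genes tested. From week 2 to week 6 Lox fell with a log2 change of -1.77 ± 0.28 (edgeR adjusted p = 0.0170), or -1.87 ± 0.27 without replicate 3. Median osteoblast marker sums at week 6 were 5986 CPM around ACPC-NP, 7010 around CaP and 8747 around PCL. At week 2 they were 20964, 19494 and 18924 in that order, and the ranges of the weeks overlapped around CaP. The part of osteoblasts in the Lox and P4ha2 changes was not tested.

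Other genes of the pathways were counted in the week 2 comparison of ACPC-NP with both other scaffolds, from whole lists rather than for how they moved. Of 25 other glycolysis and pyruvate genes 1 rose and 0 fell, Slc2a6, a lysosomal sugar transporter, at 1.65 ± 0.36 (edgeR adjusted p = 0.0208), a share near the 4.88% of all genes called higher, and the list's median was -0.04. Of 9 genes of the HIF machinery 1 rose, Arnt2, a partner of the alpha subunits, at 0.603 against 0.135 mean CPM, but it reached 10 counts in only 2 libraries outside ACPC-NP at week 2 and so is a description. Of 30 other oxygen-response genes 8 rose and 0 fell, with a median of 0.87 beside -0.02 over all genes. Among them Ero1a, which oxidises proteins in the endoplasmic reticulum, differed by 3.20 ± 0.57, Edn1, the vessel-constricting peptide endothelin, by 4.10 ± 0.75, and Hmox1, the haem-degrading oxygenase, by 2.55 ± 0.50 (edgeR adjusted p = 0.0116, 0.0118 and 0.0142). Without replicate 3 these were 0.92, 2.81 and 0.80, and edgeR called 0 genes of the 3 lists, with 2, 1 and 5 genes higher at an unadjusted p under 0.05 (4.84% of all genes).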

How the data were processed

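Polyadenylated RNA of 18 libraries was sequenced. Per the submitters' processing notes, the tools were bcl2fastq 2.20.0, STAR 2.7.9a and featureCounts of Subread 2.0.1 on the build Rnor_6.0, and the authors deposited raw counts per gene. Not given in the sources used here are the annotation, strand setting and treatment of reads shared between copies. Members and lists were chosen with earlier results of these data known.

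All 18 libraries were fitted in 1 model of scaffold and week with edgeR 4.0.16 (R 4.3.3) by its robust quasi-likelihood test, with TMM scaling and genes kept by filterByExpr (minimum count 10, minimum total 15). P-values were adjusted by Benjamini-Hochberg over the 11814 genes tested within each of 14 comparisons, and those under 0.05 were called. The standard error is the log2 difference divided by the square root of F. With 12 residual degrees of freedom and a biological coefficient of variation of 26.0%, small changes of scarce genes were not detectable. Groups were taken from the labels. By the rule for named genes, full values are given for the 4 members with the largest and the 2 with the smallest absolute week 2 difference in each set, with Hif1a, Epas1 and members past the threshold elsewhere; values of others at week 6 were added after they were seen. Alternatives were DESeq2 1.42.0, limma 3.58.1 (voom with quality weights), other scalings and filters, a replicate block, the groups compared alone, and leaving out each library. The procedure was tested on simulated counts in which no library had a profile of its own. That run cannot speak for calls that rest on ACPC-NP replicate 3. Promoter windows came from RefSeq (GRCr8), another build than that of the counts, and were used for their letters only.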

Additional observations from a re-analysis of the deposited data

Results flagged for a closer look

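Egln3 differed over time with opposite signs around ACPC-NP and CaP, and the libraries of the 2 weeks did not overlap in either group. Its log2 change from week 2 to week 6 was -2.70 around ACPC-NP and 0.49 around CaP, and the interaction of -3.20 ± 0.91 did not pass (edgeR adjusted p = 0.252). Without ACPC-NP replicate 3 of week 2 the interaction was -1.16 ± 0.27 (edgeR adjusted p = 0.439). The same libraries read the other way give an ACPC-NP minus CaP difference of 3.00 at week 2 and -0.20 at week 6. Egln3 also changed order between CaP and PCL, with a difference of -0.28 at week 2 and 0.34 at week 6, and the difference between those was not tested.

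Bnip3l had the opposite signs to Egln3, again without overlap. Its log2 change was 0.47 around ACPC-NP and -0.48 around CaP, and the interaction of 0.94 ± 0.27 did not pass (edgeR adjusted p = 0.252), or 0.89 ± 0.29 without that library (edgeR adjusted p = 0.499). Read by week, ACPC-NP minus CaP was -0.33 at week 2 and 0.61 at week 6, and the summed erythroid markers were likewise below CaP at week 2 and above it at week 6 without overlap. Their part in this result was not tested.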

How the results depend on the processing

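The week 2 calls rest mainly on ACPC-NP replicate 3. Leaving out each library in turn gave 0 to 24 calls (median log2 difference 0.37 to 1.85) for ACPC-NP against both other scaffolds at week 2, 0 to 22 (0.37 to 1.88) against PCL and 0 to 23 (0.38 to 1.81) against CaP. At week 6 it gave 0 to 2 calls against PCL and 0 to 3 against both. For the week change it gave 0 to 20 around ACPC-NP (-1.58 to -0.30) and 0 to 1 for the mean of the scaffolds. Each interaction had 0 to 2 (-1.60 to -0.28 with PCL, -1.81 to -0.43 with CaP). The share of all genes called is not given for each of these fits.

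DESeq2 called 17 members against PCL and 20 against CaP at week 2, 2 against PCL and 2 against both at week 6, 15 for the week change around ACPC-NP, 1 for the mean change, and 2 and 5 for the interactions with PCL and CaP. In the same order voom called 5, 6, 7, 4, 7, 1, 4 and 1, with 12 against both at week 2 and 1 for the week change around PCL. Its medians were 0.54, 0.58 and 0.59 at week 2 (PCL, CaP, both) and -0.45 and -0.56 for the interactions. The 9 week 2 libraries alone gave 0 calls. Counts by DESeq2 and voom are again without the share of all genes they called.

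Combined settings without ACPC-NP replicate 3 were chosen after seeing the data. DESeq2 then called 2 against both and 1 against CaP at week 2, with medians of 0.37 (PCL), 0.39 (CaP) and 0.38 (both), -0.30 for the week change, and -0.27 and -0.43 for the interactions. With voom there were 0 calls at week 2 and 1 for the mean change, and the medians were 0.44, 0.41, 0.41, -0.32, -0.19 and -0.43. Total counts with no scaling gave 0 calls and 0.38, 0.41, 0.40, -0.40, -0.36 and -0.57. Differences near 0 changed sign in week 2. Pfkfb4 was -0.11 with no scaling and -0.074 to 0.080 with 1 library left out, below 0 without ACPC-NP replicate 2 or PCL replicate 3. Gpi ran from -0.036 (without ACPC-NP replicate 3) to 1.04, and without that library was -0.033, -0.017 and -0.013 with DESeq2, voom and no scaling. Pfkm was 0.022 by voom there. The cause of these shifts was not tested.

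A replicate block left 5 calls against both scaffolds at week 2. Same-numbered libraries correlated by -0.327 to 0.420 over 45 pairs (median 0.0262). Differently numbered ones correlated by -0.567 to 0.500 over 90 pairs (median -0.00852). The labels give same-numbered libraries only a number in common, and whether they share more was not tested. Members with few counts, such as Tpi1 and Ankrd37, are the least precise.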
